A study of Mus musculus with 20 samples.

Results

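Transforming growth factor beta (TGF-beta) signalling was described through 10 genes, Tgfb1, Tgfbr1, Tgfbr2, Tgfbr3, Eng, Smad2, Smad3, Smad4, Smad6 and Smad7, out of 20377 gene symbols in the count table. They were chosen by symbol, and all 10 were found. The samples were RNA sequencing libraries of mouse bone marrow from male 129S4 mice aged 4 months. KSL cells (cKit+ Sca1+ Lin-, the fraction that holds haematopoietic stem and progenitor cells) came from Fancd2-/- mice on oxymetholone, Fancd2-/- mice on placebo, wild-type mice on oxymetholone and wild-type mice on placebo, with 3 libraries per group, each from a pool of 5 mice. Erythroblasts (Ter119+ CD71-high FSC-high) came from wild-type mice on oxymetholone and on placebo, with 3 libraries per group and 1 mouse per library. Whole bone marrow of placebo-fed Fancd2-/- and wild-type mice gave 1 library each, combined from 5 mice. Oxymetholone, an androgen, was given at 300 mg/kg in the diet for 3 months from weaning. The Fancd2-/- mice lack a Fanconi anaemia protein in every tissue and serve as a model of that disease, and no Fancd2-/- erythroblasts were analysed here.

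TGF-beta is made as a latent ligand and acts after release. The active ligand binds the type II receptor TGFBR2, which recruits and phosphorylates the type I receptor TGFBR1. TGFBR1 phosphorylates SMAD2 and SMAD3, which join SMAD4 and act on genes in the nucleus, while SMAD6 and SMAD7 hold the pathway back. In bone marrow TGF-beta is known as a signal that keeps haematopoietic stem cells out of division.

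The upstream promoter sequences of both signalling receptors, of the co-receptor gene Eng and of the inhibitor gene Smad6 are shown because the results turn on these genes. Tgfbr2, Eng and Smad6 were far lower in erythroblasts than in KSL cells, and Tgfbr1 was the member not called there. Each run is the 250 bases before the RefSeq start in GRCm38.p6, 5′ to 3′ on the strand of the gene. Capitals mark GC boxes (GGGCGG or CCGCCC) and SMAD boxes (CAGAC or GTCTG). These were searched on both strands together with a GATA motif (AGATAA or TTATCT), and no 2 marked matches overlap.
Tgfbr1 (chr4:47352972-47353221, plus strand): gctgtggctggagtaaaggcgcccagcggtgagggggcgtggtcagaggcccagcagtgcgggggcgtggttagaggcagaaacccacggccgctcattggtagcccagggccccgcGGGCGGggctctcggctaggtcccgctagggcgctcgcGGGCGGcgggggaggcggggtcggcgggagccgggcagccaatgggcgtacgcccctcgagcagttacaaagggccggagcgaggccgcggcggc
Tgfbr2 (chr9:116175364-116175613, minus strand): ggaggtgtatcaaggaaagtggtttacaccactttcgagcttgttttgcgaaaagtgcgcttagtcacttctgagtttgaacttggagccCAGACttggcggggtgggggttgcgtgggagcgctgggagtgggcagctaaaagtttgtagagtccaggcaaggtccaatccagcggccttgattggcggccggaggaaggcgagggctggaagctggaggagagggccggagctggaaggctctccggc
Eng (chr2:32646345-32646594, plus strand): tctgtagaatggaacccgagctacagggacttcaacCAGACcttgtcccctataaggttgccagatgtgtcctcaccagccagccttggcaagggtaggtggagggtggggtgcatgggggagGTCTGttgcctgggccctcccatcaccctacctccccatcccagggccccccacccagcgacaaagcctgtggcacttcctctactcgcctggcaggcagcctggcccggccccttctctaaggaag
Smad6 (chr9:64022060-64022309, minus strand): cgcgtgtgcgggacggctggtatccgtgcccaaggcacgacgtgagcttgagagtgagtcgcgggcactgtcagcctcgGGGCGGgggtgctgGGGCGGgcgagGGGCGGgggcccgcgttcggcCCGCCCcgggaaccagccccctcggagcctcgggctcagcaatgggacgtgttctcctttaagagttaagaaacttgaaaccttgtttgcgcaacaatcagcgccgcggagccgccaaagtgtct

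The Tgfbr1 window held 2 GC boxes and the Smad6 window 4, while the Tgfbr2 window held 1 SMAD box and the Eng window 2. Of 32841 promoter windows of the same length, 32.75% held a GC box, 42.21% a SMAD box and 9.991% the GATA motif. The GC content was 74.8% for Tgfbr1, 58.4% for Tgfbr2, 62.4% for Eng and 66.8% for Smad6, against a median of 52.4% over all windows. Eng had 4 CpG dinucleotides in its window, the fewest of these sequences, and Tgfbr1 had 29, the most. Promoter windows were also read for Tgfb1 (75.2% GC, 5 GC boxes) and Smad3 (69.2% GC, 2 GC boxes), and none of the 6 windows held the GATA motif. Those of Smad2, Smad4, Smad7 and Tgfbr3 were not read. The table held 2 starts for Tgfbr1, of which the first is shown.

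Counted reads per library were 10.8 to 121 M in KSL cells, 17.2 to 20.8 M in erythroblasts, and 107 M (Fancd2-/-) and 100.2 M (wild-type) in whole marrow. Fancd2 itself was at 4.65 to 6.15 CPM (the read count of a gene scaled by the TMM-adjusted total of its library) in all 6 KSL libraries of Fancd2-/- mice, against 12.1 to 16.5 CPM in those of wild-type mice. The 8 erythroblast markers summed to 83700 to 100200 CPM in erythroblasts and to 41.8 to 123 CPM in KSL cells. The 10 KSL markers summed to 1.08 to 3.17 CPM in erythroblasts and to 2266 to 3680 CPM in KSL cells, where all 10 were detected in every group. Some KSL libraries stood apart. Fancd2-/- placebo replicate 2 had neutrophil markers at 158.9 CPM, against 14.0 to 43.1 CPM in the other KSL libraries. Its erythroblast markers summed to 123.4 CPM, against 41.8 to 70.9 CPM in the others. In Fancd2-/- placebo replicate 3 long transcripts were low. Its log2 CPM relative to the mean library changed by -0.19 with each doubling of length, where the other 11 KSL libraries lay between -0.04 and 0.10, and 8 stromal markers summed to 78.9 CPM against 18.0 to 26.2 CPM in the others. Of the 10 genes, 8 had their lowest KSL value in that library, all but Tgfb1 and Tgfbr3, so the results for Smad6, Eng and Smad7 and for other pathway genes called in placebo-fed Fancd2-/- cells are given with and without it.

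Tgfb1 was the most abundant of the 10 genes per transcript length in every group. Levels between genes are given as RPKM, which is CPM divided by the spliced length of the transcript in kilobases. In wild-type placebo KSL cells Tgfb1, the ligand gene (NM_011577, chr7:26472021-26490015, mm9), was at 108, 124 and 112 RPKM, followed by Eng at 69.6, 89.2 and 75.0 RPKM. Eng (NM_001146350, chr2:32502115-32538189) encodes endoglin, a co-receptor for TGF-beta and bone morphogenetic proteins that is found on endothelium and on long-term stem cells. Smad4 (NM_008540, chr18:73798667-73863395), the shared partner of the receptor-activated SMADs, came next at 34.6, 37.4 and 39.9 RPKM. The ranges of these 3 genes did not overlap.

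Tgfbr2, Smad2 and Smad3 formed the next level in wild-type placebo KSL cells, and their ranges overlapped each other. Tgfbr2 (NM_009371, chr9:115996813-116084481), the ligand-binding receptor, was at 19.9 to 22.9 RPKM. Smad2 (NM_010754, chr18:76401579-76465385) was at 18.2 to 21.3 RPKM and Smad3 (NM_016769, chr9:63494574-63605801) at 17.9 to 21.2 RPKM, and both encode SMADs that the type I receptor phosphorylates. Tgfbr1 (NM_009370, chr4:47366177-47427796), the type I receptor, stood below them at 4.75 to 6.45 RPKM. The lowest were Smad7 (NM_001042660, chr18:75527019-75555588) at 3.21 to 4.10 RPKM, Tgfbr3 (NM_011578, chr5:107535589-107718614), the co-receptor betaglycan, at 2.56 to 3.65 RPKM, and Smad6 (NM_008542, chr9:63800883-63869866) at 2.23 to 3.01 RPKM. Smad7 overlapped Tgfbr3, and Tgfbr3 overlapped Smad6, in these libraries.

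**Figure D1:**
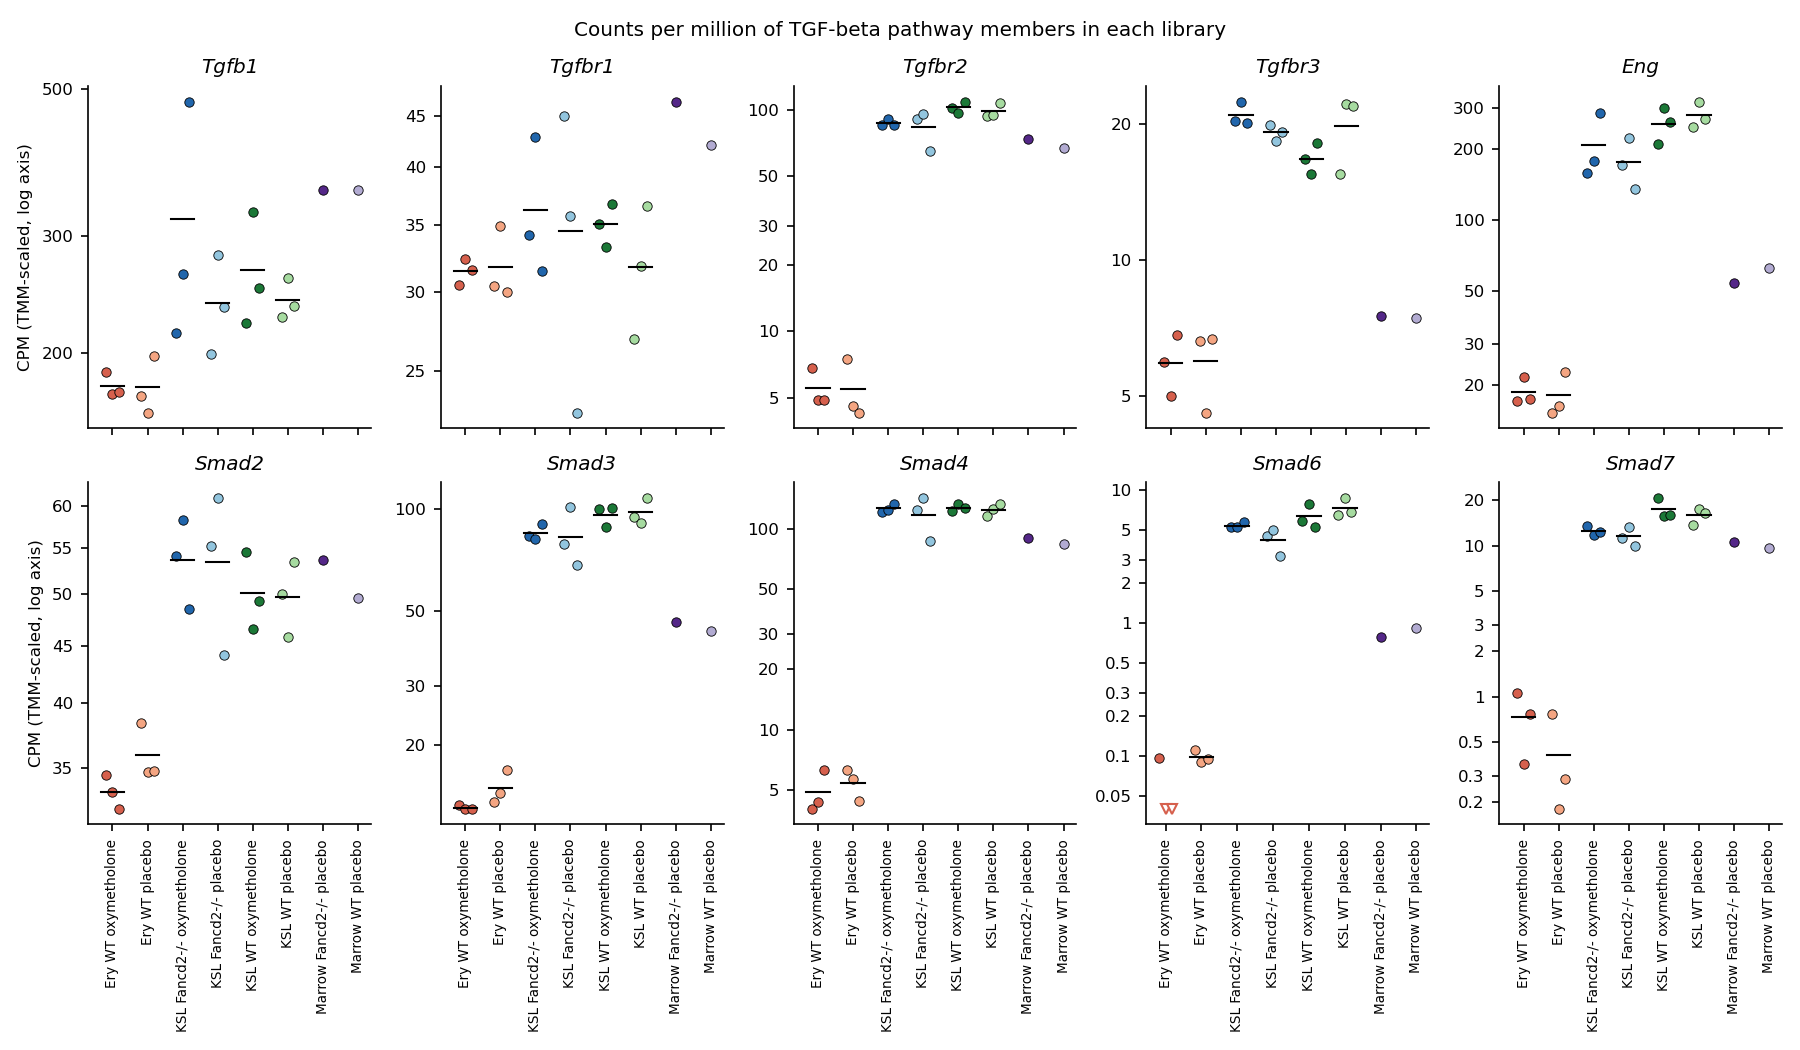
CPM (log axis, 1 panel per gene with its own scale) in each library of wild-type erythroblasts (Ery), KSL cells and whole marrow; points are libraries, bars are means of 3 libraries, and open triangles at the foot of the Smad6 panel are libraries with 0 reads. Smad4, Tgfbr2, Eng, Smad6 and Smad7 are far lower in erythroblasts than in KSL cells, while Tgfbr1 lies at 30.01 to 34.98 CPM in erythroblasts and at 22.7 to 45.1 CPM in KSL cells.

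Wild-type erythroblasts had the type I receptor transcript at a level that overlapped that of KSL cells on placebo and somewhat less of the ligand transcript, but little of the type II receptor, of Smad4 and of either inhibitory SMAD. On placebo, 9 of the 10 genes were called lower in erythroblasts than in KSL cells (edgeR quasi-likelihood test, adjusted p under 0.05), and on oxymetholone the same count was reached, with Tgfbr1 the exception on both diets. Such calls were the rule, since 91% of 12538 genes tested were called on placebo and 91.5% of 12518 on oxymetholone, with 53.7% and 53.9% called lower. The count of members called is therefore near the background for calls in either direction. Smad6 and Smad7 passed the filter on low counts only through KSL cells, so a lower call was all but fixed for them. Among genes that also passed it within erythroblasts alone, 7 of 8 members and 3943 of 9641 genes were called lower on placebo. With Smad6 and Smad7 included, the members had a median log2 fold change of -3.30 on placebo against -0.67 over all genes tested. On oxymetholone it was -3.33 against -0.65. Among genes that passed within erythroblasts alone, the placebo medians were -2.20 for members and 0.22 for all genes. In bulk libraries fewer cells of a type and less RNA per cell cannot be told apart. Population also went with the number of mice pooled and with the run, so differences between the populations cannot be told apart from these.

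Smad4 had 6.28, 5.68 and 4.40 CPM in placebo erythroblasts, against 116, 125 and 133 CPM in placebo wild-type KSL cells. All erythroblast libraries lay far below all KSL libraries. The log2 fold change was -4.50 ± 0.15 (SE, n = 3 and 3; edgeR adjusted p = 2.22e-13), a 22.6-fold lower level. On oxymetholone Smad4 had 4.04, 4.38 and 6.34 CPM in erythroblasts, against 122, 133 and 127 CPM in KSL cells, with a log2 fold change of -4.70 ± 0.15 (edgeR adjusted p = 5.79e-12).

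Tgfbr2 had 7.497, 4.597 and 4.301 CPM in placebo erythroblasts, against 93.2, 94.2 and 108 CPM in placebo wild-type KSL cells. Its log2 fold change was -4.16 ± 0.18 on placebo (edgeR adjusted p = 3.71e-12) and -4.21 ± 0.13 on oxymetholone (edgeR adjusted p = 6.41e-12), and these estimates differed by less than their standard errors. Tgfbr1, whose product works only in a complex with TGFBR2 in the classical pathway, had 30.4, 35.0 and 30.01 CPM in placebo erythroblasts, against 26.9, 31.9 and 36.6 CPM in placebo wild-type KSL cells. These groups overlapped, and the log2 fold change was 0.03 ± 0.14 (95% interval -0.27 to 0.32; edgeR adjusted p = 0.843). On oxymetholone Tgfbr1 had 30.5, 32.4 and 31.6 CPM in erythroblasts, against 35.1, 33.3 and 36.8 CPM in KSL cells. There the erythroblast libraries lay just below the KSL ones, with a log2 fold change of -0.16 ± 0.10 (edgeR adjusted p = 0.162).

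Eng had 15.3, 16.4 and 22.8 CPM in placebo erythroblasts, against 248, 319 and 268 CPM in placebo wild-type KSL cells. Its log2 fold change was -3.92 ± 0.16 on placebo (edgeR adjusted p = 2.28e-12) and -3.78 ± 0.16 on oxymetholone. Tgfbr3 was less far apart, at 6.62, 4.597 and 6.69 CPM in placebo erythroblasts, against 15.5, 22.1 and 21.9 CPM in KSL cells (log2 -1.72 ± 0.20 on placebo and -1.50 ± 0.16 on oxymetholone). Both co-receptor genes were called lower on both diets. Endothelial markers, 7 genes whose cell type also carries endoglin, summed to 0.36 to 0.88 CPM in erythroblasts and 180 to 233 CPM in wild-type KSL cells. The KSL sum lay mostly in Esam (74.4 to 95.3 CPM), Pecam1 (63.0 to 79.9 CPM) and Emcn (25.8 to 41.7 CPM). Cdh5 and Kdr were at 0 in all erythroblast libraries. In wild-type KSL cells Cdh5 was at 0 to 0.192 CPM, Kdr at 0.601 to 1.42 CPM, Plvap at 1.39 to 2.14 CPM and Tek at 13.7 to 18.7 CPM. Wild-type marrow had 4.81 CPM of Cdh5, 3.37 CPM of Kdr and 5.95 CPM of Plvap. It had 0.865 CPM of Tek, 0.758 CPM of Emcn, 4.49 CPM of Esam and 45.25 CPM of Pecam1. The part of endothelial cells in the Eng level was not tested.

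Both receptor-activated SMADs were called lower, with a larger estimate for Smad3 than for Smad2. Smad3 had 13.6, 14.4 and 16.9 CPM in placebo erythroblasts, against 95.1, 91.1 and 108 CPM in placebo wild-type KSL cells, a log2 fold change of -2.69 ± 0.12 (edgeR adjusted p = 1.01e-11; -2.89 ± 0.10 on oxymetholone). Smad2 had 38.4, 34.7 and 34.8 CPM in placebo erythroblasts, against 50.1, 45.8 and 53.5 CPM in KSL cells. Its groups did not overlap, but its log2 fold change was small, -0.45 ± 0.11 on placebo (edgeR adjusted p = 0.0018) and -0.59 ± 0.10 on oxymetholone (edgeR adjusted p = 1.02e-04). Tgfb1 had 172, 162 and 198 CPM in placebo erythroblasts, against 227, 259 and 235 CPM in KSL cells. Its log2 fold change was -0.42 ± 0.11 on placebo (edgeR adjusted p = 0.00169) and -0.59 ± 0.13 on oxymetholone (edgeR adjusted p = 0.00104).

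Differences as small as those of Tgfb1, Tgfbr1 and Smad2 depend on the scaling, because the median gene was itself lower in erythroblasts. Relative to that median, Tgfbr1 was higher by 0.24 to 1.12 log2 units on placebo and by 0.05 to 0.90 on oxymetholone under the scalings and tools tried, though its own estimate was called lower on both diets with a length trend removed or on the deposited scaled score. Smad2 was higher than the median gene by 0.18 to 0.65 on placebo and by 0.03 to 0.46 on oxymetholone, and Tgfb1 by 0.20 to 0.67 and by 0.05 to 0.47. The other 7 genes stood below the median gene in all of them, from Tgfbr3 at -1.55 to -0.63 on placebo down to Smad6 at -5.99 to -4.26.

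The inhibitory SMADs were close to the limit of counting in erythroblasts. Smad7, which blocks the type I receptor and is itself induced by TGF-beta, had 7, 2 and 3 reads in placebo erythroblasts (0.77, 0.18 and 0.29 CPM), against 13.8, 17.5 and 16.4 CPM in placebo wild-type KSL cells. Its log2 fold change was -5.31 ± 0.33, and -4.60 ± 0.28 on oxymetholone. No p is given here, because Smad7 passed the filter on low counts only through KSL cells and a lower call was all but fixed. Smad6, which mainly restrains the bone morphogenetic protein branch, had 1 read in each placebo erythroblast library and 1, 0 and 0 reads in the oxymetholone ones. In wild-type KSL cells its level was 6.48, 8.73 and 6.88 CPM on placebo. On oxymetholone it was 5.81, 7.90 and 5.29 CPM there. From these reads, summed over libraries, Smad6 was 83.0-fold higher in KSL cells than in erythroblasts on placebo (95% exact interval 28.4 to 403) and 232-fold higher on oxymetholone (41.6 to 9164). The intervals cover counting error only.

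**Figure D2:**
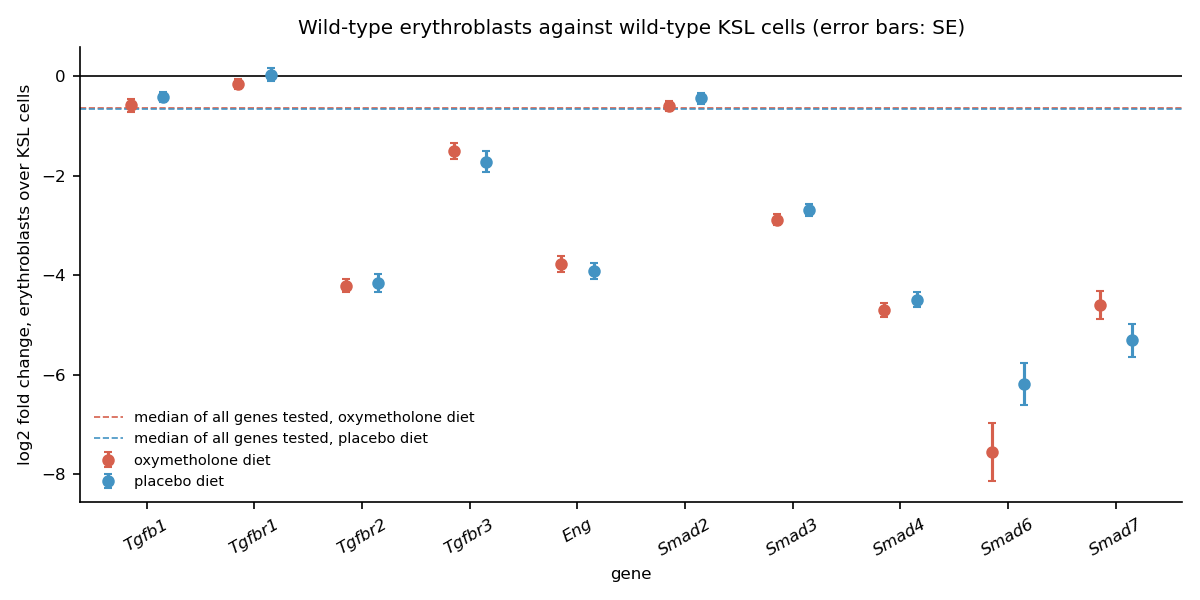
Log2 fold change of erythroblasts over KSL cells in wild-type mice on oxymetholone and on placebo, for each gene; points are edgeR estimates, bars are standard errors, and dashed lines are the medians of all genes tested (-0.65 and -0.67). Tgfb1, Tgfbr1 and Smad2 lie above the median gene, and the other 7 lie below it.

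Ratios between genes within a library do not depend on the scaling between libraries. They are ratios of reads per kilobase, chosen after the values were seen, and so are given as descriptions with no test. Tgfbr2 over Tgfbr1 was 0.183, 0.187 and 0.271 in oxymetholone erythroblasts and 0.159, 0.173 and 0.298 in placebo ones, against 3.48 to 3.57 and 3.55 to 4.18 in wild-type KSL cells on oxymetholone and on placebo. The type II receptor transcript was thus above the type I transcript in every KSL library and below it in every erythroblast library. Over both diets the ratio averaged 0.212 ± 0.058 in erythroblasts and 3.64 ± 0.26 in wild-type KSL cells (SD, n = 6 each).

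Smad4 over the sum of Smad2 and Smad3 averaged 0.094 ± 0.019 in erythroblasts and 0.972 ± 0.086 in wild-type KSL cells (SD, n = 6 each). In KSL cells the transcript of the shared partner was about as abundant as those of both receptor-activated SMADs together, and in erythroblasts it was far below them. Smad3 over Smad2 averaged 0.2001 ± 0.0222 in erythroblasts and 0.960 ± 0.040 in wild-type KSL cells (SD, n = 6 each).

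**Figure D3:**
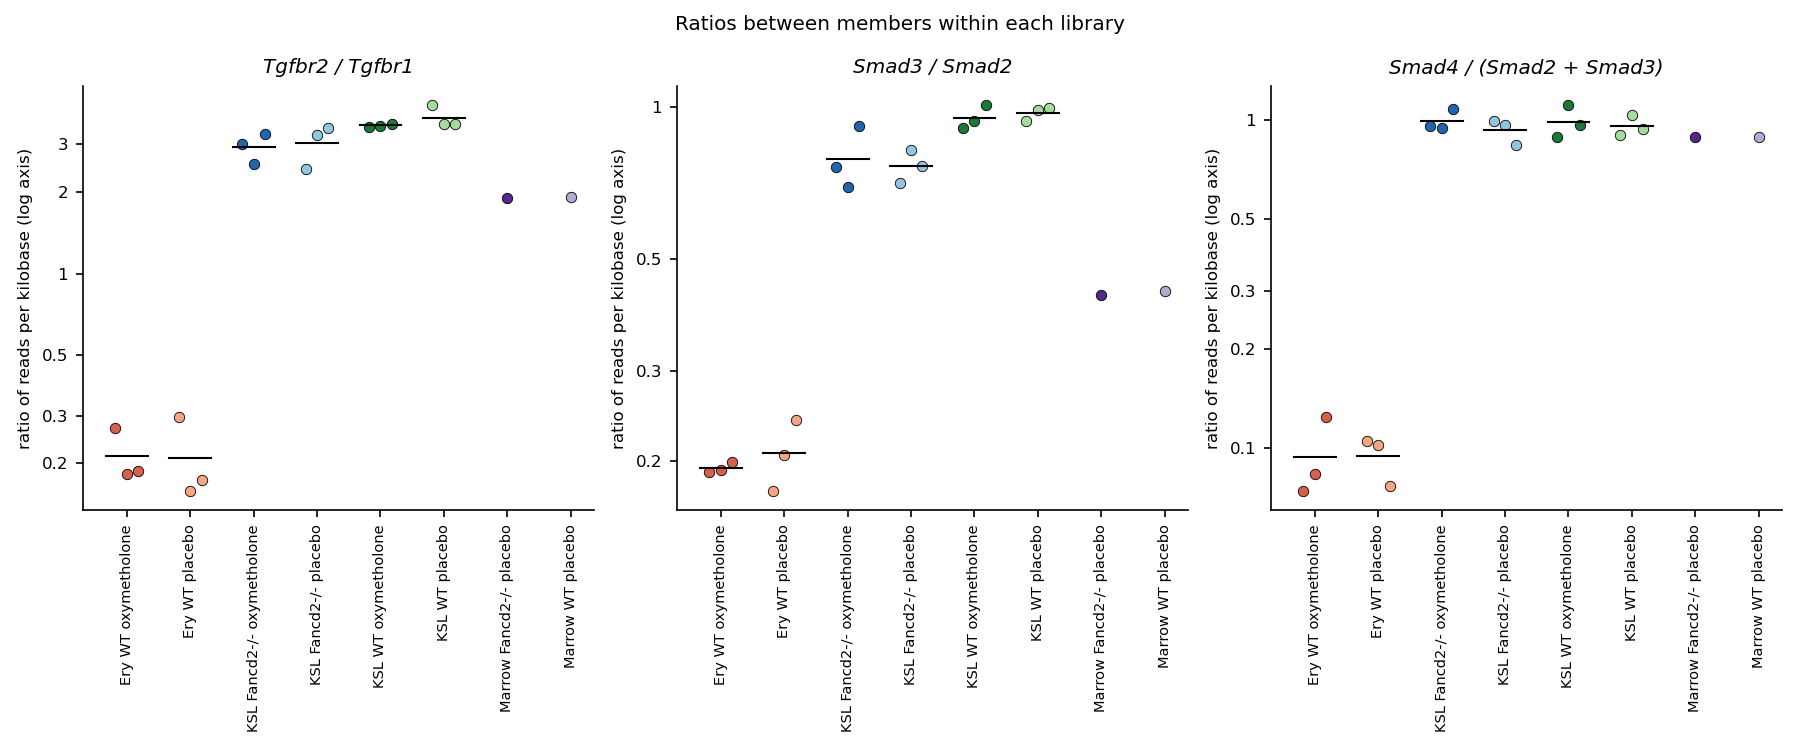
Ratios of reads per kilobase between genes within each library (log axis) in wild-type erythroblasts (Ery), KSL cells and whole marrow; points are libraries and bars are means of 3 libraries. Tgfbr2 over Tgfbr1 lies at 0.159 to 0.298 in erythroblasts and at 2.43 to 4.18 in KSL cells, and Smad4 over the sum of Smad2 and Smad3 at 0.074 to 0.124 in erythroblasts and 0.836 to 1.11 in KSL cells.

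The rest of the pathway in erythroblasts was read from 72 other genes in 5 lists that share some genes, of which 53 could be tested on placebo, 13 called higher and 36 lower. The share of all genes tested was 37.2% called higher and 53.7% called lower. Of the 53, 34 also passed the filter on low counts within erythroblasts alone, with 13 called higher and 17 lower, and the other 19 entered only through KSL cells, so that a lower call was all but fixed. Among 9641 genes that passed in erythroblasts alone 4658 were called higher and 3943 lower. All 6 tested of the other receptors of the family were called lower, but Acvr2a alone passed in erythroblasts, and Acvr1, Acvr1b, Acvr2b, Acvrl1 and Bmpr2 did not. Of 10 tested ligands and activators 2 were called higher and 8 lower, and 3 passed in erythroblasts alone, of which 2 were called higher and 1 lower. Of 17 tested other SMADs, cofactors and brakes 4 were called higher and 13 lower, with 14 passing in erythroblasts alone, 4 called higher and 10 lower. Of 18 tested target genes 3 were called higher and 13 lower, with 12 passing in erythroblasts alone, 3 called higher and 7 lower. The list of the non-SMAD arm held Map3k7 (the gene of the kinase TAK1), Tab1, Tab2, Tab3, Traf6, Mapk14 and Daxx. All passed in erythroblasts alone, and 5 of 7 were called higher and 0 lower (median log2 fold change 1.63). Daxx and Traf6 were not called.

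The 6 genes of these lists with the smallest p were Fkbp1a, Tab3, Ltbp3, Smad1, Usp15 and Tgif1. Fkbp1a, which encodes the FKBP12 protein that holds the type I receptor inactive, had 1.07 ± 0.31 CPM in placebo erythroblasts and 190 ± 4.3 CPM in KSL cells (SD, n = 3 each; log2 -7.44 ± 0.17, edgeR adjusted p = 7.68e-15). Tab3, which binds TAK1, had 341 ± 45 CPM in placebo erythroblasts and 10.99 ± 0.79 CPM in KSL cells (log2 4.98 ± 0.13), and Usp15, a deubiquitinase that acts on receptor-activated SMADs, had 734 ± 68 CPM in placebo erythroblasts and 61.3 ± 4.1 CPM in KSL cells (log2 3.60 ± 0.11). Ltbp3, a latent TGF-beta binding protein (log2 -7.00 ± 0.18), Smad1, a SMAD of the bone morphogenetic protein branch (-7.24 ± 0.22), and Tgif1, a SMAD corepressor (-7.43 ± 0.23), were each under 1 CPM in placebo erythroblasts. Smad1 and Tgif1 did not pass the filter on low counts within erythroblasts alone. They entered only through KSL cells, so a lower call and a small p were all but fixed for them. All 6 had the same direction on oxymetholone, where the log2 fold changes were -7.43, 4.76, -5.95, -7.92, 3.52 and -7.31 in the order of the first sentence.

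In Fancd2-/- KSL cells on placebo, Smad6, Eng and Smad7 were at lower levels than in wild-type cells, but none of the 10 genes was called. At adjusted p under 0.05, edgeR called 0 of 10 members, against 1.28% of 13259 genes. At an unadjusted p under 0.05 it found 3 of 10 members, Smad6, Eng and Smad7, against 2598 genes (19.6%). Smad6 had 4.51, 4.99 and 3.17 CPM in Fancd2-/- placebo cells, against 6.48, 8.73 and 6.88 CPM in wild-type placebo cells. The groups did not overlap, and the log2 difference was -0.79 ± 0.21 (n = 3 each; edgeR adjusted p = 0.0799). Without Fancd2-/- placebo replicate 3 it was -0.62 (edgeR adjusted p = 0.196), and without Fancd2-/- placebo replicate 2 it was -0.90 (edgeR adjusted p = 0.088). The highest adjusted p came without wild-type placebo replicate 2, a library of 121 M counted reads, where it was -0.63 (edgeR adjusted p = 0.309).

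Eng had 172, 222 and 136 CPM in Fancd2-/- placebo cells, against 248, 319 and 268 CPM in wild-type placebo cells. Every Fancd2-/- library was below every wild-type one, with a log2 difference of -0.64 ± 0.21 (edgeR adjusted p = 0.139). The difference was -0.48 (edgeR adjusted p = 0.316) without Fancd2-/- placebo replicate 3 and -0.80 (edgeR adjusted p = 0.103) without Fancd2-/- placebo replicate 2. Without wild-type placebo replicate 2 the Eng difference was -0.52 (edgeR adjusted p = 0.410). Smad7 had 11.2, 13.3 and 9.95 CPM in Fancd2-/- placebo cells, against 13.8, 17.5 and 16.4 CPM in wild-type placebo cells. Again the groups did not overlap, and the log2 difference was -0.44 ± 0.16 (edgeR adjusted p = 0.159). It was -0.35 (edgeR adjusted p = 0.338) without Fancd2-/- placebo replicate 3 and -0.53 (edgeR adjusted p = 0.142) without Fancd2-/- placebo replicate 2. Without wild-type placebo replicate 2 the Smad7 difference was -0.35 (edgeR adjusted p = 0.452). Groups that do not overlap with the Fancd2-/- side lower were seen in 15.1% of genes tested, against 3 of these 10.

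Other tools were more permissive. DESeq2 called Smad6 (log2 -0.77, DESeq2 adjusted p = 0.0159), where it called 6.37% of 12704 genes with an adjusted p. limma voom with sample quality weights called Smad6 (-0.72, limma adjusted p = 0.0183) and Eng (-0.47, limma adjusted p = 0.0465), where it called 11.1% of genes. The remaining 7 members lay between -0.22 (Smad3) and 0.14 (Tgfbr1) on placebo, with 95% intervals that all include 0.

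On oxymetholone the genotypes were again apart in Smad7, with no call. edgeR called 0 of 10 members, against 0.128% of 13259 genes. At an unadjusted p under 0.05 it found 2 members, Smad7 and Tgfbr3, against 738 genes (5.57%). Smad7 had 13.6, 11.8 and 12.4 CPM in Fancd2-/- oxymetholone cells, against 20.7, 15.8 and 16.0 CPM in wild-type oxymetholone cells. Its log2 difference was -0.47 ± 0.16 (edgeR adjusted p = 0.567), close to that on placebo. Every Fancd2-/- library was thus below every wild-type one on each diet, and Smad7 was called on neither.

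Tgfbr2 had 85.2, 90.5 and 85.5 CPM in Fancd2-/- oxymetholone cells, against 101, 96.8 and 109 CPM in wild-type oxymetholone cells, with no overlap and a log2 difference of -0.22 ± 0.13 (edgeR adjusted p = 0.999). Tgfbr3 had 20.3, 22.4 and 20.2 CPM in Fancd2-/- oxymetholone cells, against 16.7, 15.5 and 18.1 CPM in wild-type oxymetholone cells, a log2 difference of 0.33 ± 0.15 (edgeR adjusted p = 0.873). Groups were apart in this way for 2 of 10 members and 7.06% of genes on the lower side, and for 1 member and 5.02% of genes on the higher side. The log2 difference on oxymetholone was -0.23 ± 0.21 for Smad6 and -0.30 ± 0.21 for Eng, and their groups overlapped. Single libraries moved both, Smad6 to -0.03 without wild-type oxymetholone replicate 2, and Eng to -0.14 without Fancd2-/- oxymetholone replicate 1 and -0.57 without Fancd2-/- oxymetholone replicate 3. The genotype differences share their libraries with the oxymetholone effects given next.

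**Figure D4:**
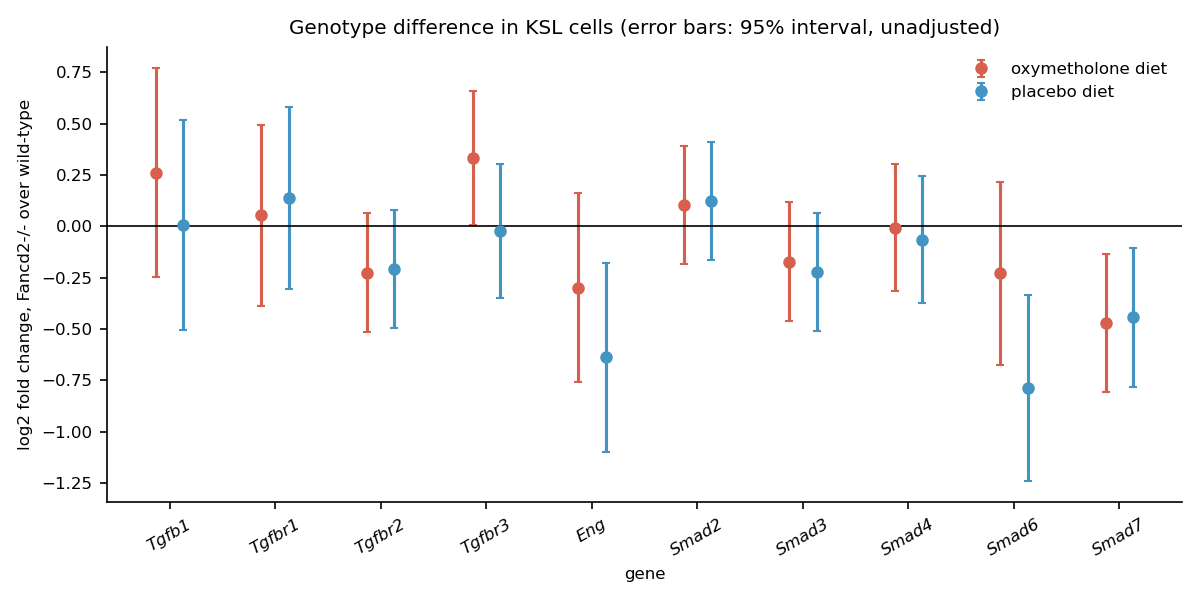
Log2 fold change of Fancd2-/- over wild-type KSL cells on oxymetholone and on placebo, for each gene; points are edgeR estimates from 3 libraries per group and bars are unadjusted 95% intervals. On placebo the intervals of Eng (-1.10 to -0.18), Smad6 (-1.24 to -0.34) and Smad7 (-0.78 to -0.10) lie below 0.

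The same ratios are given between genotypes as descriptions. Tgfbr2 over Tgfbr1 averaged 2.94 ± 0.37 on oxymetholone and 3.04 ± 0.54 on placebo in Fancd2-/- KSL cells, against 3.52 ± 0.05 and 3.77 ± 0.36 in wild-type ones (SD, n = 3 each). Over both diets it was 2.43 to 3.45 in the 6 Fancd2-/- libraries, against 3.48 to 4.18 in the 6 wild-type ones. These ranges did not overlap but nearly met. How often ratios of other gene pairs are apart in this way was not counted. Smad3 over Smad2 averaged 0.776 ± 0.083 in the 6 Fancd2-/- libraries and 0.960 ± 0.040 in the 6 wild-type ones, and 0.779 ± 0.092 in Fancd2-/- libraries without placebo replicate 3 (SD). Its ranges overlapped, at 0.692 to 0.916 in Fancd2-/- and 0.905 to 1.006 in wild-type libraries. Smad4 over the sum of Smad2 and Smad3 was 0.962 ± 0.078 in Fancd2-/- and 0.972 ± 0.086 in wild-type libraries (SD, n = 6 each). The libraries of a pair shared a cytometer setting and are not independent.

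None of the 10 genes was called for oxymetholone in KSL cells of either genotype. In Fancd2-/- cells edgeR, with a block for the pair, called 0 of 10 members and 0 of 13259 genes (0%). At an unadjusted p under 0.05 it found 0 members and 903 genes (6.81%). The member estimates ran from 0.01 (Smad2) to 0.38 (Smad6) and were all above 0. Their pairs were unlike each other. The log2 ratio of oxymetholone over placebo was 0.11, -0.10 and 1.03 for Tgfb1 in Fancd2-/- pairs 1, 2 and 3, and -0.11, -0.31 and 1.07 for Eng. Pair 3 gave the highest of the Fancd2-/- ratios for all members but Tgfbr3. Its placebo library is the one with low long transcripts. Its oxymetholone library had 112.6 M counted reads, against 32.1 M in that placebo library. The part of either in the ratios was not tested. Without pair 3 the Eng estimate was -0.18, against 0.21 with it.

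Tgfb1 reached 478 CPM in Fancd2-/- oxymetholone replicate 3, against 199 to 326 CPM in the other 11 KSL libraries. The other Fancd2-/- oxymetholone libraries had 214 and 263 CPM of Tgfb1, against 199, 280 and 234 CPM in the Fancd2-/- placebo ones, and the log2 change was 0.34 ± 0.17 (n = 3 pairs; edgeR adjusted p = 0.688). Tgfbr3 was the one receptor gene with groups that did not overlap, at 20.3, 22.4 and 20.2 CPM on oxymetholone, against 19.9, 18.4 and 19.2 CPM on placebo (log2 0.12 ± 0.14). Smad6 did not overlap either, at 5.23, 5.25 and 5.73 CPM on oxymetholone, against 4.51, 4.99 and 3.17 CPM on placebo (log2 0.38 ± 0.19; edgeR adjusted p = 0.688). Such a separation upward was seen in 2.99% of genes.

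In wild-type cells edgeR called 0 of 10 members and 0 of 13259 genes, and at an unadjusted p under 0.05 it found 0 members and 357 genes (2.69%). limma voom called 0 members and 1.92% of genes there (254), and DESeq2 0 members and 4 genes. The estimates ran from -0.22 (Tgfbr3) to 0.16 (Tgfbr1), and the groups of all 10 overlapped, where 3.25% of genes were apart on the higher side and 5.39% on the lower side. The log2 ratio of Smad6 was 0.21, 0.07 and 0.86 in Fancd2-/- pairs 1, 2 and 3, against -0.16, -0.14 and -0.38 in the wild-type pairs. It was the one member above 0 in every Fancd2-/- pair and below 0 in every wild-type pair, as 1.22% of genes tested were. The difference of the oxymetholone effect between genotypes was 0.59 ± 0.27 for Smad6 (edgeR unadjusted p = 0.0463, adjusted p = 0.953). For Tgfbr3 it was 0.34 ± 0.20 (edgeR adjusted p = 0.953), and edgeR called this difference for 0 of 10 members and 0 of 13259 genes. At an unadjusted p under 0.05 it found 1 member, Smad6, and 457 genes (3.45%).

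**Figure D5:**
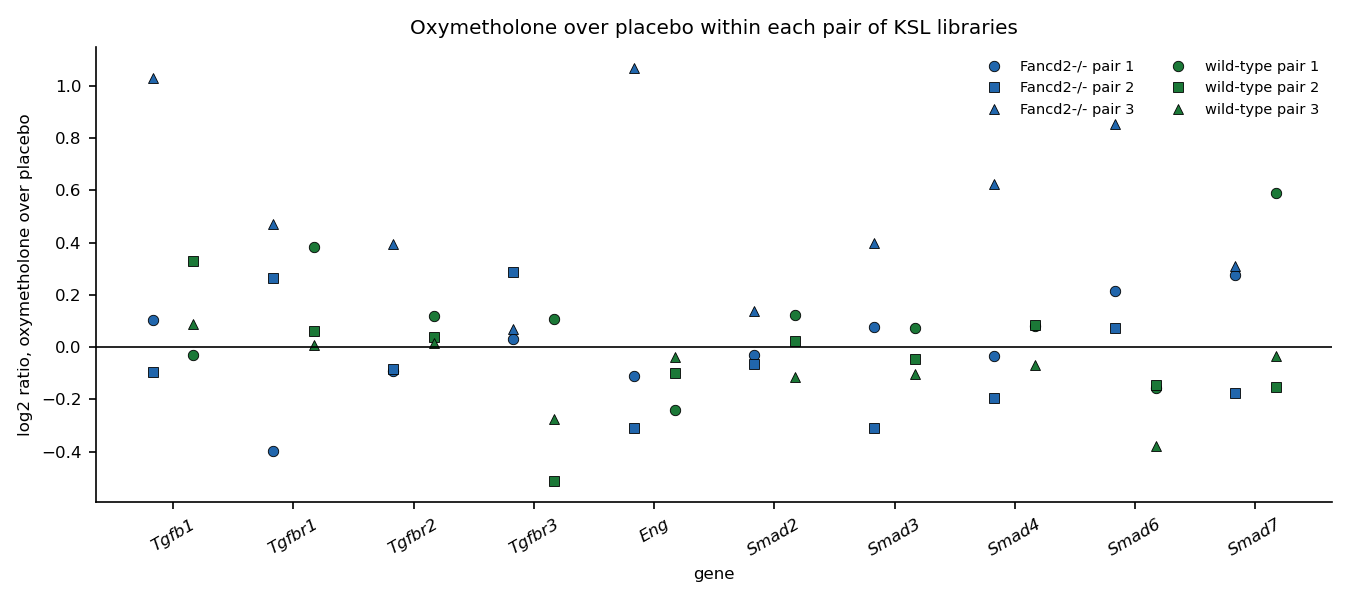
Log2 ratio of oxymetholone over placebo within each pair of KSL libraries that shared a cytometer setting, for each gene; colours are genotypes and symbols are pairs. Fancd2-/- pair 3 lies highest for Tgfb1 (1.03), Eng (1.07) and Smad6 (0.86), while the wild-type pairs of Smad6 lie at -0.38 to -0.14.

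For oxymetholone in wild-type erythroblasts edgeR called 0 of 8 members tested and 0 of 9694 genes, with 0 members and 123 genes (1.27%) at an unadjusted p under 0.05. Smad6 and Smad7 were not tested there, since they had too few reads. Smad2 had 34.5, 33.3 and 32.2 CPM on oxymetholone, against 38.4, 34.7 and 34.8 CPM on placebo, and Smad3 had 13.26, 12.95 and 12.96 CPM on oxymetholone, against 13.6, 14.4 and 16.9 CPM on placebo. These groups did not overlap, as in 2.2% of genes in that direction, and the log2 changes were -0.13 ± 0.09 for Smad2 and -0.22 ± 0.12 for Smad3 (edgeR adjusted p = 0.9996 for both). The other 6 estimates lay between -0.17 and 0.03.

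Of the 72 other pathway genes, 61 could be tested in KSL cells. On placebo 0 were called higher and 2 lower in Fancd2-/- cells, and 17 had an unadjusted p under 0.05, where 19.6% of all genes did. Cdkn1c, a cell cycle inhibitor that TGF-beta induces in human haematopoietic progenitors, had 19.0 ± 0.87 CPM in Fancd2-/- placebo cells and 33.2 ± 1.3 CPM in wild-type ones (SD, n = 3 each; log2 -0.78 ± 0.13, edgeR adjusted p = 0.0128). Ltbp3, whose product holds latent TGF-beta in the matrix, had 71.4 ± 7.8 CPM in Fancd2-/- placebo cells and 114 ± 9.0 CPM in wild-type ones (log2 -0.66 ± 0.13, edgeR adjusted p = 0.0351). Both calls could be lost with 1 library left out, in fits that had fewer libraries. DESeq2 and limma voom, which called 6.37% and 11.1% of genes here, also called both. For Ltbp3 the adjusted p was 7.2e-04 with DESeq2 and 0.0023 with limma. The Cdkn1c call held without Fancd2-/- placebo replicate 1 or 3 (edgeR adjusted p = 0.0319 without replicate 3) and was lost without Fancd2-/- placebo replicate 2 or any 1 wild-type placebo library (edgeR adjusted p up to 0.0732). The Ltbp3 call was lost without any 1 of the 6 placebo libraries, with an edgeR adjusted p of 0.0848 without Fancd2-/- placebo replicate 3 and a range of 0.0522 to 0.154. Their log2 differences stayed between -0.80 and -0.74 for Cdkn1c and between -0.70 and -0.59 for Ltbp3 in these fits. The median of the 61 was -0.09, against -0.01 over all genes. edgeR called 0 of the 61 between genotypes on oxymetholone, 0 for oxymetholone in Fancd2-/- cells and 0 in wild-type cells, with 6, 6 and 4 at an unadjusted p under 0.05, where 5.57%, 6.81% and 2.69% of all genes were. In erythroblasts it called 0 of 34 for oxymetholone, with 1 at an unadjusted p under 0.05, where 1.27% of all genes were.

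Whole bone marrow had a single library of each genotype and so no replicate check. The ratio of Fancd2-/- over wild-type ran from 0.843 for Smad6 (0.779 CPM in Fancd2-/- and 0.924 CPM in wild-type marrow; 95% counting interval 0.601 to 1.18) to 1.10 for Tgfbr1 (46.6 CPM in Fancd2-/- and 42.2 CPM in wild-type marrow; interval 1.06 to 1.16). Eng was at 54.1 CPM in Fancd2-/- marrow and 62.8 CPM in wild-type marrow, a ratio of 0.862 (interval 0.829 to 0.897). These intervals cover counting error in 2 libraries, not the spread between mice.

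Against whole marrow, KSL cells were richest in Smad6 and Eng. The mean of KSL cells on placebo over the marrow library was 5.42-fold for Smad6 in Fancd2-/- mice and 7.97-fold in wild-type mice, and for Eng 3.27-fold in Fancd2-/- and 4.44-fold in wild-type mice. For Tgfbr3 it was 2.56-fold in Fancd2-/- and 2.66-fold in wild-type mice. On the TMM scale Smad2 was level, at 0.997-fold in Fancd2-/- and 1.003-fold in wild-type mice. Tgfb1 was lower in KSL cells on that scale, at 0.675-fold in Fancd2-/- and 0.684-fold in wild-type mice, with no test. The TMM factors were 1.38 to 1.46 in placebo KSL libraries and 0.84 in both marrow libraries. The direction for Tgfb1 and the level ratio for Smad2 therefore hold on this scale only. Neutrophil markers summed to 14.0 to 159 CPM in KSL cells, against 125000 CPM in Fancd2-/- and 116800 CPM in wild-type marrow, and erythroblast markers to 41.8 to 123 CPM in KSL cells, against 16560 CPM in Fancd2-/- and 16840 CPM in wild-type marrow. Their part in these ratios was not tested. Tgfbr2 over Tgfbr1 was 1.91 in Fancd2-/- marrow and 1.92 in wild-type marrow, between the erythroblast and KSL values.

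Across the 12 KSL libraries, likeness to other genes was read as Pearson's r of log2 CPM among 9121 genes with a mean of at least 10 CPM. These are descriptions over libraries that share depth and length differences. The most alike gene was Lpcat4 for Tgfb1 (r = 0.947), Adam10 for Tgfbr1 (r = 0.978), BC032203 for Tgfbr2 (r = 0.949), App for Tgfbr3 (r = 0.835) and Sh2b1 for Eng (r = 0.977). For the SMADs it was Zfp110 for Smad2 (r = 0.981), Pik3r4 for Smad3 (r = 0.928), Arid2 for Smad4 (r = 0.956), Tle2 for Smad6 (r = 0.944) and Fcer1g for Smad7 (r = 0.874). Over the 11 libraries without Fancd2-/- placebo replicate 3, Zfp110, Pik3r4 and Fcer1g were again the most alike, and the r of Arid2 was 0.792.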

How the data were processed

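Per the labels' protocols and the series' design text, TruSeq libraries were read as 51 bases, mapped to mm9 with Bowtie and analysed with edgeR. The sources used here do not give tool versions, strand setting or the treatment of reads that match several places. The authors deposited read counts for 26005 RefSeq rows in 20 libraries, and a score, the counts scaled to a common total and rounded, which served only as an alternative. For each symbol the row with the largest total was kept.

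From the deposited counts, CPM were computed on 1 TMM scale over the 20 libraries. Lengths for RPKM came from GENCODE transcripts clipped to the RefSeq span. Genes passing filterByExpr were tested with edgeR 4.0.16 (robust quasi-likelihood, R 4.3.3) and Benjamini-Hochberg adjustment over all genes tested. The oxymetholone effect in KSL cells had a term for each pair of the design text as a block, and genotype was tested by group means over 12 KSL libraries. Deviations from group means correlated within 5 of the 6 pairs at 0.11 to 0.26, and at -0.06 in Fancd2-/- pair 2. A column name that no label holds was taken as Fancd2-/- placebo replicate 1, whose title is closest. Erythroblasts and KSL cells were compared within each diet. Alternatives were other size factors, no filter, DESeq2 1.42.0, limma 3.58.1 (voom, and on log2 of the score plus 1), summed rows, a length trend removed, no block and libraries left out. The fits were tested on simulated data.

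All 10 genes are named. Other pathway genes called were named up to 6 per comparison by smallest p, and for each member the most alike gene. Trim33, Map3k7, Tab2, Smad5 and the ratios were chosen after their values were seen. The members and lists were chosen with earlier results of these data known. Promoter sequences are from RefSeq (GRCm38.p6). Windows of 6 members were read. Tgfbr3 had no promoter there, and Smad2, Smad4 and Smad7, all on chr18, were left out by rule.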

Additional observations from a re-analysis of the deposited data

Results flagged for a closer look

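Smad6 was the one member with all pairs of one sign in each genotype and the signs opposite. It was higher on oxymetholone in all 3 Fancd2-/- pairs and lower in all 3 wild-type pairs, and the difference of the effects was 0.59 log2 units (edgeR unadjusted p = 0.0463, adjusted p = 0.953). Of 13259 genes tested 1.22% had pairs in these directions. In the Fancd2-/- group the pair of placebo replicate 3, the library with low long transcripts, gave 0.86 of log2 change, and the other pairs 0.21 and 0.07. The oxymetholone library of that pair had 112.6 M counted reads, against 32.1 M in its placebo library.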

How the results depend on the processing

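No call by edgeR among the 10 genes within KSL cells or within erythroblasts changed under any alternative run with edgeR. Between genotypes on placebo the count of members called was 0 in edgeR, 1 with DESeq2 and 2 with limma voom, while the count over all genes, 170, was 11 in the 6 placebo libraries alone, 809 with DESeq2, 1473 with voom and 19 to 236 with a library left out (76 without Fancd2-/- placebo replicate 3). On oxymetholone, 17 became 86 with DESeq2 and 46 with voom. Of the other pathway genes named, Cdkn1c and Ltbp3 also lost their calls in the 6 placebo libraries alone, and Trim33 with the score (0.19). Fits without the replicate block for the pairs, or with the block in 1 genotype alone, called 0 members for oxymetholone too, so the pairing moved no call. The Eng estimate for oxymetholone in Fancd2-/- cells turned to -0.034 with voom and ran from -0.18 to 0.46 with a pair left out, and Tgfbr3 turned to -0.011 with the length trend removed.

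Between erythroblasts and KSL cells 8 genes, all but Tgfb1 and Tgfbr1, kept direction and call in the alternatives run. Tgfbr1 changed sign on placebo with a covariate for diet over 12 libraries (-0.074), no filter (-0.034), the length trend removed (-0.38) and the score (-1.34), and was called lower with the last 2 (edgeR adjusted p = 0.00933 and limma adjusted p = 9.29e-06). It ran from -0.083 to 0.11 with a library left out. On oxymetholone it turned to 0.019 with DESeq2 and 0.017 with median-of-ratios size factors, and was called lower with the length trend removed (-0.54) and on the score (-1.53). Tgfb1 lost its placebo call with the length trend removed (-0.15, edgeR adjusted p = 0.175). That trend was centred per library after its first output was seen. The cause of these changes was not tested. Of 484 alternative values of members with no value of their own in the text, 77 changed sign, all of them of uncalled differences near 0, and 0 changed call. Depth limits Smad6 and Smad7 in erythroblasts, where they had 0 to 11 reads per library.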

Other observations

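Trim33, Map3k7, Tab2 and Smad5, from the same lists, were named after their values were seen. Trim33, which in human cells binds SMAD2 and SMAD3 in place of SMAD4, had 132 ± 6.4 CPM in placebo erythroblasts and 45.0 ± 1.6 CPM in placebo wild-type KSL cells (SD, n = 3 each; log2 1.57 ± 0.10, edgeR adjusted p = 5.94e-10). On the deposited score Trim33 was not called (log2 0.19, limma adjusted p = 0.0593). Any such exchange of partners in erythroblasts was not tested. Map3k7, the gene of the kinase TAK1, had 221 ± 19 CPM in placebo erythroblasts and 52.9 ± 1.7 CPM in KSL cells (log2 2.08 ± 0.10), and its partner Tab2 had 579 ± 66 CPM in placebo erythroblasts and 128 ± 7.3 CPM in KSL cells (log2 2.20 ± 0.11). Smad5, the SMAD of the bone morphogenetic protein branch that acts in stress erythropoiesis in the mouse spleen, had 29.0 ± 3.0 CPM in placebo erythroblasts and 131 ± 3.6 CPM in KSL cells (log2 -2.15 ± 0.12).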
